A study of Drosophila melanogaster with 12 samples.

Results

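The comparison described here sets eye discs of late larvae (instar L3) of Drosophila melanogaster labelled rbf120a against eye discs labelled Canton S, with 3 biological replicates and 3 arrays in each group. These 6 arrays were chosen by their genotype labels from the 12 arrays of the series, and all 11982 genes with a probe set of their own were tested, each through its probe set with the highest mean. Canton S is a standard wild-type laboratory strain, and rbf120a is an allele of Rbf, the fly retinoblastoma family gene. The other groups, used to check each function, were wtsX1Lats, an allele of warts, and the double mutant rbf120a wtsX1Lats, also with 3 arrays each. Per the series' design text, discs were mosaic: they also held wild-type cells, with mutant cells in the majority because they outgrew the wild-type ones. Nothing in the labels tells the number of discs behind a replicate, how the clones were made or what else the chromosomes carried, so the allele and the strain background cannot be told apart in a comparison with Canton S. Titles spell the allele rbfl120a and the genotype field rbf120a, and the labels of rbf120a replicate 3 carry the word redo without explaining it.

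Retinoblastoma family proteins bind E2F transcription factors and hold back genes that cells need to enter and pass S phase. In the fly eye disc, a wave of differentiation called the morphogenetic furrow crosses the tissue, cells ahead of it divide freely, and cells behind it exit the cycle as photoreceptors are specified. Warts, also known as Lats, is the kinase at the end of the Hippo pathway, which limits growth by restraining the co-activator Yorkie. The question taken here is which functions other than DNA replication differ in rbf120a discs, and whether the other mutant discs differ in the same way.

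Rbf (CG7413, X chromosome) was at 9.54, 9.31 and 9.51 in the Canton S arrays and at 9.13, 9.13 and 9.22 in the rbf120a arrays on the log2 scale. All rbf120a arrays lay below all Canton S arrays, and the change was -0.29 ± 0.26 (SE; adjusted p = 0.812). The SE pools the spread of all groups of the series. For Rbf the SD was 0.12 in Canton S and 0.05 in rbf120a but 0.71 in wtsX1Lats. The labels do not place the lesion relative to the probes, so the Rbf level does not check them. The determinants of eye fate and photoreceptor genes that define the tissue were well above the array medians of 5.76 to 5.86 in both groups, among them eya at 11.33, 11.53 and 11.34 in the Canton S arrays and at 11.07, 11.21 and 11.58 in the rbf120a arrays and glass (gl) at 10.56, 11.09 and 10.66 in the Canton S arrays and at 9.98, 9.96 and 10.49 in the rbf120a arrays. None of eya, so, ey, dac, ato, gl, sev, elav, chp and Optix passed the test between rbf120a and Canton S. Salivary gland genes set rbf120a replicate 2 apart: their median log2 difference from the Canton S mean was 1.69 there, and -0.26 and -0.22 in replicates 1 and 3. In that array 40 genes lay at least 2 above both other rbf120a arrays, against 6 in replicate 1 and 10 in replicate 3. Of the 420 genes called below, 0 were among the 40. Such a gap widens the spread and works against a call, so this 0 does not check the calls. Without rbf120a replicate 2, 228 genes were called, and 216 of the 420 kept their call.

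With limma and Benjamini-Hochberg adjustment over all genes, 420 genes (3.51% of those tested) had an adjusted p under 0.05. Of these, 215 (1.79%) were higher in rbf120a and 205 (1.71%) lower, and 184 (1.54%) differed by at least 1 on the log2 scale, a doubling of the signal. The arrays of the 2 groups did not overlap in any of the 420 genes, while they failed to overlap in 20.6% of all genes. Over all genes the median change was 0.00. Dropping any 1 of the 12 arrays in turn kept 165 of the 420 calls, 77 higher and 88 lower, and the count ranged from 197 without Canton S replicate 1 to 632 without wtsX1Lats replicate 1. Against Canton S, 672 genes (5.61%) were called in wtsX1Lats, 273 (2.28%) higher and 399 (3.33%) lower. The double mutant had 658 (5.49%), 267 (2.23%) higher and 391 (3.26%) lower. The first of these counts reached 1596 without wtsX1Lats replicate 3 and fell to 297 without Canton S replicate 1, and the second reached 1080 without wtsX1Lats replicate 1 and fell to 297 without double mutant replicate 3. All 3 comparisons use the same Canton S arrays, so their values are set side by side below and are not independent repeats.

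DNA replication serves as the reference function. Of 45 measured genes of that list, 22 rose and 0 fell in rbf120a, a share of 48.9% called, with list medians of 0.99 in rbf120a, 0.97 in the double mutant and 0.66 in wtsX1Lats. In the rbf120a arrays the list median lay between 0.95 and 1.05 above the Canton S mean. By array it was in wtsX1Lats 1.31 in replicate 1 but 0.36 and 0.37 in replicates 2 and 3; the count for the double mutant against wtsX1Lats, given below, turns on replicate 1. Orc1, the largest subunit of the origin recognition complex, was at 7.84, 8.04 and 7.61 in the Canton S arrays and at 9.63, 9.76 and 9.76 in the rbf120a arrays, a change of 1.89 ± 0.31 (SE; adjusted p = 0.00534). Prim2, the large primase subunit, changed by 1.81 ± 0.29 (SE; adjusted p = 0.00414), and cutlet, the fly counterpart of the clamp loader component Ctf18, by 1.65 ± 0.29 (SE; adjusted p = 0.00778). These 3 changes were 1.85 in the double mutant and 1.47 in wtsX1Lats for Orc1, 1.87 in the double mutant and 1.61 in wtsX1Lats for Prim2 and 1.52 in the double mutant and 0.93 in wtsX1Lats for cutlet.

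A few genes of mitosis rose, and by less than the replication genes named above. Of 26 mitotic kinase, checkpoint and passenger complex genes, 3 rose and 0 fell, 11.5% called against 3.51% of all genes. The 3 were the passenger complex genes borr and aurB and the separase regulator thr, at 0.64 ± 0.13, 0.75 ± 0.17 and 0.46 ± 0.11 (SE). List medians were 0.23 in rbf120a, 0.30 in the double mutant and 0.28 in wtsX1Lats. In the kinetochore list 1 of 13 genes rose, Nnf1b (0.81 ± 0.17 (SE; adjusted p = 0.0243)), and in the condensin and cohesin list 1 of 16, the cohesin acetyltransferase eco (0.54 ± 0.12 (SE; adjusted p = 0.0245)). These lists had 7.69% and 6.25% called, a single gene each, and medians of 0.29 and 0.30. Each of the 5 calls was lost without some single arrays, with adjusted p = 0.0757 without rbf120a replicate 3 for borr, adjusted p = 0.143 without rbf120a replicate 3 for aurB, adjusted p = 0.18 without rbf120a replicate 3 for thr, adjusted p = 0.0797 without Canton S replicate 1 for Nnf1b and adjusted p = 0.12 without rbf120a replicate 3 for eco.

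A subunit of the complex that nucleates microtubules rose on every array. Grip91 (CG10988, X chromosome), a subunit of the gamma-tubulin ring complex, was at 8.75, 8.73 and 8.82 in the Canton S arrays and at 10.18, 10.04 and 10.18 in the rbf120a arrays. The groups were far apart, and the change of 1.37 ± 0.12 (SE; adjusted p = 9.04e-05) kept its call without any 1 array. Grip91 was also higher in the other mutants, by 1.49 in the double mutant (adjusted p = 3.36e-05) and 1.15 in wtsX1Lats (adjusted p = 0.000276). The centriolar protein gene spd-2 rose by 0.85 ± 0.20 (SE; adjusted p = 0.0395), a call lost without 9 of the 12 arrays (adjusted p = 0.132 without rbf120a replicate 3). The other 25 of the 27 centrosome, spindle and cytokinesis genes did not pass the test, and list medians were 0.13 in rbf120a, 0.20 in the double mutant and 0.17 in wtsX1Lats.

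DNA damage response and repair genes rose as a minority of their list. Of 32 genes 4 rose and 0 fell, 12.5% called against 3.51% of all genes. The list medians were 0.29 in rbf120a, 0.36 in the double mutant and 0.22 in wtsX1Lats. FANCI, partner of FANCD2 in the Fanconi anaemia pathway of crosslink repair, was at 7.11, 7.45 and 7.11 in the Canton S arrays and at 8.09, 8.05 and 8.33 in the rbf120a arrays. Its change of 0.93 ± 0.14 (SE; adjusted p = 0.00307) held without any 1 array. The helicase gene mus301 was at 1.02 ± 0.21, the mismatch repair gene Msh6 at 0.91 ± 0.19 and PolH, the translesion polymerase eta, at 0.73 ± 0.16 (SE). Those 3 calls were lost in turn, with adjusted p = 0.0759 without rbf120a replicate 1, adjusted p = 0.112 without rbf120a replicate 3 and adjusted p = 0.139 without rbf120a replicate 3. In wtsX1Lats 0 of the 32 genes passed the test, against 5.61% of all genes. In the double mutant 6 did, all higher, which is 18.8% against 5.49% of all genes. Compared directly, rbf120a minus wtsX1Lats had a list median of 0.035 with 1 gene called, higher (3.12% against 1.0% of all genes). The double mutant minus wtsX1Lats had a list median of 0.07 with 0 called.

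RecQ4, Claspin and timeout, which are not in the repair list, also rose. RecQ4, a helicase of the RecQ family, changed by 1.62 ± 0.19 (SE; adjusted p = 0.000664), and Claspin, the mediator of the replication checkpoint kinase, by 1.28 ± 0.18 (SE; adjusted p = 0.00164). The timeless relative timeout, which in flies and mammals acts in chromosome maintenance, was at 6.98, 7.12 and 6.61 in the Canton S arrays and at 9.08, 9.12 and 9.19 in the rbf120a arrays, a change of 2.23 ± 0.27 (SE; adjusted p = 0.000698). The timeout change was 2.28 in the double mutant and 1.70 in wtsX1Lats. timeout was also the 1 call among 13 circadian clock genes, a list whose median was -0.01. For Claspin rbf120a was higher than wtsX1Lats by 0.93 ± 0.18 (SE; adjusted p = 0.0322), a call lost without 9 of the 12 arrays (adjusted p = 0.13 without rbf120a replicate 3) and with the replicate number as a block (adjusted p = 0.0518).

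Nucleotide supply and chromatin followed with a few members each. In nucleotide synthesis 2 of 21 genes rose, the ribonucleotide reductase subunit RnrL (1.15 ± 0.18 (SE; adjusted p = 0.00299)) and the deoxynucleoside kinase dnk (1.33 ± 0.25 (SE; adjusted p = 0.011)). Both also stand in the replication list, and the dnk call was lost without 2 arrays (adjusted p = 0.0559 without Canton S replicate 1). Of 45 histone and chromatin genes 3 rose, the variant histone His2Av (0.33 ± 0.06), the FACT subunit dre4 (0.48 ± 0.11) and the histone chaperone asf1 (1.10 ± 0.27). The Brahma complex subunit Bap60 fell by 0.44. All 4 calls were lost without single arrays, with adjusted p = 0.0668 without rbf120a replicate 3 for His2Av, adjusted p = 0.12 without rbf120a replicate 3 for dre4, adjusted p = 0.177 without rbf120a replicate 3 for asf1 and adjusted p = 0.126 without Canton S replicate 1 for Bap60. The nucleotide and chromatin lists had 9.52% and 8.89% called, against 3.51% of all genes, and medians of 0.15 and 0.05.

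The second fly retinoblastoma family gene also moved. Rbf2 (CG5083, arm 3R), which can take the place of Rbf in the dREAM repressor complex, was at 7.93, 8.40 and 7.87 in the Canton S arrays and at 8.76, 8.81 and 9.0 in the rbf120a arrays. Every rbf120a array was above every Canton S array, with a change of 0.79 ± 0.18 (SE; adjusted p = 0.0358), but the call was lost without 6 of the 12 arrays (adjusted p = 0.162 without rbf120a replicate 3). Rbf2 was 0.77 in the double mutant (adjusted p = 0.031) and 0.45 in wtsX1Lats (adjusted p = 0.184). It was the only one of 12 dREAM and Rb family genes to pass the test in rbf120a, and the list median was 0.15.

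Among genes of the nuclear envelope, 1 gene rose more than any replication gene. LBR (CG17952, arm 2R), the lamin B receptor, an inner nuclear membrane protein that tethers lamins and heterochromatin, was at 7.84, 7.61 and 8.19 in the Canton S arrays and at 10.62, 10.61 and 10.71 in the rbf120a arrays. The change was 2.76 ± 0.14 (SE; adjusted p = 5.96e-07). The other mutants were at the same height, at 10.75, 10.84 and 10.80 in the double mutant and at 10.49, 10.65 and 10.86 in wtsX1Lats, and rbf120a minus wtsX1Lats was -0.02 ± 0.14 (SE; adjusted p = 0.96). Of the 30 envelope and pore genes only LBR and the nucleoporin Nup154 rose and 0 fell. Nup154 changed by 0.37 ± 0.09 (SE), and its call was lost without 9 arrays (adjusted p = 0.177 without rbf120a replicate 2). The list medians were 0.20 in rbf120a, 0.31 in the double mutant and 0.32 in wtsX1Lats.

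**Figure D1:**
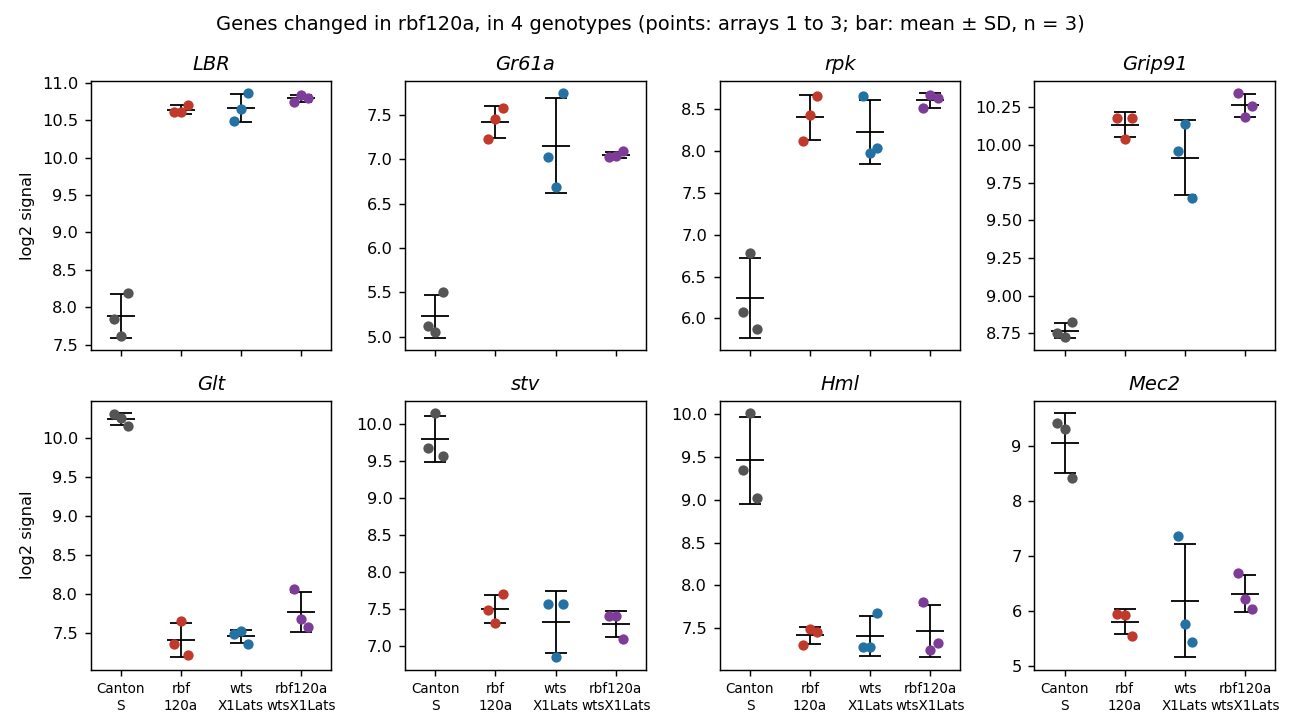
Log2 signal of 8 genes in each of the 12 arrays by genotype, with group means and SDs as bars (n = 3). LBR, Gr61a, rpk and Grip91 lay higher and Glt, stv, Hml and Mec2 lower in all 9 mutant arrays than in the 3 Canton S arrays.

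Genes of small RNA pathways and of RNA binding gave both large rises and a large fall. krimp (CG15707, arm 2R), a Tudor domain protein of the germline nuage where piRNAs are made, was at 4.70, 4.65 and 4.59 in the Canton S arrays and at 7.12, 6.70 and 6.77 in the rbf120a arrays. It was thus near the floor of the scale in Canton S and clearly above it in rbf120a, a change of 2.22 ± 0.16 (SE; adjusted p = 1.14e-05). In the other mutants it was at 5.46, 5.01 and 5.28 in the double mutant and at 5.52, 5.17 and 4.96 in wtsX1Lats, in between. rbf120a was higher than wtsX1Lats by 1.65 ± 0.16 (SE; adjusted p = 0.000561), and the double mutant was lower than rbf120a (-1.62 ± 0.16 (SE; adjusted p = 0.000432)).

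del, or deadlock, which binds Rhino on piRNA source loci, was at 6.32, 6.59 and 6.11 in the Canton S arrays and at 7.74, 7.58 and 7.74 in the rbf120a arrays, a change of 1.35 ± 0.14 (SE; adjusted p = 0.000291). It rose in all mutants, by 1.88 in the double mutant and 1.01 in wtsX1Lats. The piRNA-binding Argonaute AGO3 rose by 0.39 ± 0.08 (SE; adjusted p = 0.0221), a call lost without 3 arrays (adjusted p = 0.0813 without rbf120a replicate 1). AGO3 was at 4.40, 4.40 and 4.33 in the Canton S arrays and at 4.93, 4.67 and 4.71 in the rbf120a arrays. These values lay below the array medians of 5.76 to 5.86, and a signal this dim cannot be told from background. The other 34 of 37 piRNA and germline genes did not pass the test. Among them piwi was at 0.07 ± 0.11 (SE), vas at -0.19 ± 0.06 and rhi at -0.08 ± 0.08, and the list median was 0.08. No gene of the testis and sperm list (0 of 41) was called in rbf120a, against 3.51% of all genes. In wtsX1Lats 3 of them rose and in the double mutant 3. That was 7.32% in each, near the 5.61% and 5.49% called over all genes.

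blanks (CG10630, arm 3L) encodes a protein that binds double-stranded RNA and is known from the testis. It was at 6.30, 6.19 and 6.38 in the Canton S arrays and at 8.69, 7.89 and 7.76 in the rbf120a arrays, a change of 1.82 ± 0.20 (SE; adjusted p = 0.000412). In the other mutants it was close to Canton S, at 6.38, 6.15 and 6.20 in the double mutant and at 6.57, 6.43 and 6.30 in wtsX1Lats. Direct tests separated rbf120a from both, by 1.68 ± 0.20 (SE; adjusted p = 0.0024) from wtsX1Lats and by -1.87 ± 0.20 (SE; adjusted p = 0.00102) for the double mutant minus rbf120a.

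Hrb87F (CG12749, arm 3R), an abundant RNA-binding protein of the hnRNP A family, moved the other way. It was at 12.55, 12.54 and 12.55 in the Canton S arrays and at 9.96, 10.63 and 10.20 in the rbf120a arrays. The Canton S arrays were nearly equal, all rbf120a arrays lay far below them, and the change was -2.28 ± 0.19 (SE; adjusted p = 3.75e-05). In the other mutants it was at 12.15, 12.39 and 12.38 in the double mutant and at 11.53, 12.26 and 12.04 in wtsX1Lats, much closer to Canton S. rbf120a was lower than wtsX1Lats (-1.68 ± 0.19 (SE; adjusted p = 0.0015)), and the double mutant was higher than rbf120a (2.04 ± 0.19 (SE; adjusted p = 0.000283)). The 2 groups that carry rbf120a thus differed in this gene, and both direct tests kept their calls without any 1 array.

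In the splicing and RNA processing list 2 of 26 genes rose, 7.69% called against 3.51% of all genes. Rbm13, named for its RNA-binding motif, was at 7.80, 7.74 and 7.55 in the Canton S arrays and at 9.89, 9.85 and 9.91 in the rbf120a arrays, a change of 2.19 ± 0.17 (SE; adjusted p = 2.06e-05), and was 2.19 in the double mutant and 2.0 in wtsX1Lats. The U2 snRNP subunit Sf3b3 changed by 0.51 ± 0.10 (SE), and its call was lost without 5 arrays (adjusted p = 0.0757 without rbf120a replicate 3). The list median was 0.01.

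Single receptor and channel genes of sensory neurons rose, while the chemosensory list as a whole, with 2.76% called, lay below the 3.51% of all genes. Gr61a (CG13888, arm 3L), a gustatory receptor for sugars, was at 5.12, 5.06 and 5.51 in the Canton S arrays and at 7.23, 7.45 and 7.58 in the rbf120a arrays. Its change was 2.19 ± 0.23 (SE; adjusted p = 0.000235). Gr64a (CG32261, arm 3L), another sugar receptor, was at 4.52, 4.49 and 4.97 in the Canton S arrays and at 7.01, 6.14 and 6.88 in the rbf120a arrays, a change of 2.02 ± 0.21 (SE; adjusted p = 0.000291). The other mutants were high too, with Gr61a at 1.82 in the double mutant (adjusted p = 0.000662) and 1.92 in wtsX1Lats (adjusted p = 0.000523) and Gr64a at 2.23 in the double mutant (adjusted p = 0.000101) and 2.04 in wtsX1Lats (adjusted p = 0.000229). They were 2 of 217 chemosensory genes, of which 5 rose and 1 fell, with a median of 0.00.

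The odorant-binding protein gene Obp19d rose by 1.27 ± 0.18 (SE; adjusted p = 0.00202) and Obp99c fell (-1.17 ± 0.15 (SE; adjusted p = 0.00104)), both kept without any 1 array. Obp99c was also lower in the other mutants, at -1.58 in the double mutant (adjusted p = 0.00011) and -1.45 in wtsX1Lats (adjusted p = 0.000236). The rises of Obp56h (0.80 ± 0.18) and of the odorant receptor gene Or47a (0.31 ± 0.07) were lost without single arrays (adjusted p = 0.124 without rbf120a replicate 1 and adjusted p = 0.14 without rbf120a replicate 2). Obp56h differed between the groups with rbf120a, the double mutant minus rbf120a being -0.98 ± 0.18 (SE; adjusted p = 0.0315), a call lost without 6 arrays (adjusted p = 0.16 without rbf120a replicate 1).

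rpk (CG1058, arm 3R), a channel subunit of the DEG/ENaC family, was at 6.07, 6.79 and 5.88 in the Canton S arrays and at 8.12, 8.43 and 8.66 in the rbf120a arrays, a change of 2.16 ± 0.24 (SE; adjusted p = 0.00048). ppk29, a DEG/ENaC subunit of pheromone-sensing neurons, changed by 1.28 ± 0.18 (SE; adjusted p = 0.00151), and the sodium channel gene NaCP60E by 0.84 ± 0.14 (SE; adjusted p = 0.00522), though the other probe set of NaCP60E was at -0.24. Mec2 (CG7635, X chromosome), a stomatin-family membrane protein, gave the largest fall among genes with a name, from 9.43, 9.32 and 8.42 in the Canton S arrays to 5.93, 5.92 and 5.54 in the rbf120a arrays. That is a change of -3.26 ± 0.43 (SE; adjusted p = 0.00104). Of the 58 channel genes 3 thus rose and 1 fell, 6.9% called against 3.51% of all genes. All but NaCP60E were called in both other comparisons with Canton S, with rpk at 2.36 in the double mutant and 1.98 in wtsX1Lats, ppk29 at 1.25 in the double mutant and 0.86 in wtsX1Lats and Mec2 at -2.74 in the double mutant and -2.87 in wtsX1Lats.

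Metabolic genes moved singly. Mal-A1 (CG8696, arm 2R), a maltase that splits dietary sugars in the gut, was the largest rise among genes with a name. It was at 5.45, 6.52 and 5.39 in the Canton S arrays and at 8.25, 8.88 and 9.17 in the rbf120a arrays, a change of 2.98 ± 0.37 (SE; adjusted p = 0.000718). In the other mutants it was at 7.24, 6.51 and 7.13 in the double mutant and at 7.43, 6.26 and 6.76 in wtsX1Lats. rbf120a was higher than wtsX1Lats by 1.95 ± 0.37 (SE; adjusted p = 0.0313), a call lost without 5 arrays (adjusted p = 0.131 without rbf120a replicate 3) and with the replicate number as a block (adjusted p = 0.0627), while the double mutant minus rbf120a missed the threshold (-1.81 ± 0.37 (SE; adjusted p = 0.0513)). The log2 summed level of the 29 gut markers was 11.40, 11.93 and 12.01 in the rbf120a arrays and 11.32 to 11.44 in Canton S. Mal-A1 is itself among these markers, so the sum contains its rise. A part of gut tissue in the Mal-A1 change was not tested.

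The lysosomal beta-galactosidase gene Gal was at 9.76, 8.98 and 9.34 in the Canton S arrays and at 7.34, 6.95 and 6.77 in the rbf120a arrays, a change of -2.34 ± 0.35 (SE; adjusted p = 0.00238). It was as low in the other mutants (-2.29 in the double mutant and -2.40 in wtsX1Lats). The lysosomal mannosidase LManI fell by 0.88, a call lost without 8 arrays (adjusted p = 0.181 without rbf120a replicate 3). With Mal-A1 these were the calls among 27 carbohydrate genes, whose median was 0.00. None of 11 glycolysis genes passed the test in rbf120a (median 0.02), and in wtsX1Lats 4 rose (median 0.33).

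whd (CG12891, arm 2R), the mitochondrial carnitine palmitoyltransferase that admits fatty acids to oxidation, was at 10.48, 10.05 and 10.50 in the Canton S arrays and at 8.72, 8.36 and 8.49 in the rbf120a arrays. The change was -1.82 ± 0.17 (SE; adjusted p = 0.000102), and rbf120a was lower than wtsX1Lats (-1.28 ± 0.17 (SE; adjusted p = 0.00416)) and the double mutant higher than rbf120a (1.31 ± 0.17 (SE; adjusted p = 0.00473)). The other whd probe set changed by only -0.14, so this value belongs to 1 of 2 probe sets. apolpp, the precursor of the lipid carrier of the blood, rose by 0.57 ± 0.10 (SE; adjusted p = 0.00769) and was higher than in wtsX1Lats by 0.51 ± 0.10 (SE; adjusted p = 0.0355), the latter lost without 5 arrays (adjusted p = 0.13 without rbf120a replicate 3) and with the replicate number as a block (adjusted p = 0.0526). apolpp was at 4.63, 4.85 and 4.73 in the Canton S arrays and at 5.14, 5.28 and 5.51 in the rbf120a arrays. These values lay below the array medians of 5.76 to 5.86, and a signal this dim cannot be told from background. The remaining 32 of 34 lipid genes did not pass the test (median -0.05).

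Among 158 detoxification enzymes 4 rose and 6 fell, 6.33% called against 3.51% of all genes, around a median of -0.02. Cyp4p1 (CG10842, arm 2R), a cytochrome P450, was at 6.18, 7.23 and 5.84 in the Canton S arrays and at 8.22, 8.31 and 8.47 in the rbf120a arrays, a change of 1.92 ± 0.29 (SE; adjusted p = 0.00299). rbf120a was higher than wtsX1Lats by 1.76 ± 0.29 (SE; adjusted p = 0.0177), a call lost without 4 arrays (adjusted p = 0.08 without rbf120a replicate 3). Cyp6a13 and Cyp6g2 fell, at -1.47 ± 0.21 and -1.62 ± 0.28 (SE), and were -1.14 in the double mutant and -1.16 in wtsX1Lats for Cyp6a13 and -1.52 in the double mutant and -0.98 in wtsX1Lats for Cyp6g2. GstT1, a glutathione transferase, and Ugt301D1, a glucuronosyltransferase, rose by 0.79 ± 0.13 and 0.97 ± 0.15 (SE). The fall of Cyp4d2 (-1.64 ± 0.36 (SE; adjusted p = 0.0281)) was lost without 4 arrays (adjusted p = 0.112 without rbf120a replicate 2).

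The flavin monooxygenase Fmo-1 was at 4.73, 4.66 and 4.75 in the Canton S arrays and at 5.33, 5.45 and 5.69 in the rbf120a arrays, a change of 0.78 ± 0.09 (SE; adjusted p = 0.000686). The other mutants were close to Canton S (0.15 in the double mutant and 0.10 in wtsX1Lats), and both direct tests passed, at 0.68 ± 0.09 (SE; adjusted p = 0.00593) against wtsX1Lats and -0.63 ± 0.09 (SE; adjusted p = 0.00899) for the double mutant minus rbf120a, the latter lost without 1 array (adjusted p = 0.0526 without double mutant replicate 1). In the eye pigment list 3 of 20 genes were called. ry, xanthine dehydrogenase, which the eye needs for red pteridine pigments, rose by 1.53 ± 0.18 (SE; adjusted p = 0.000666). The pigment precursor transporter gene st fell by 0.54 (adjusted p = 0.00221), and kar fell by 0.77, a call lost without 4 arrays (adjusted p = 0.0869 without Canton S replicate 1). ry was 0.93 in the double mutant and 1.07 in wtsX1Lats, and the list median was -0.08.

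Sdhaf3, an assembly factor of succinate dehydrogenase, was at 8.81, 8.64 and 8.70 in the Canton S arrays and at 7.97, 7.83 and 7.79 in the rbf120a arrays. It fell by 0.86 (adjusted p = 0.00589), while the other mutants were slightly above Canton S (0.13 in the double mutant and 0.27 in wtsX1Lats). The direct tests gave -1.13 ± 0.14 (SE; adjusted p = 0.00345) against wtsX1Lats and 0.98 ± 0.14 (SE; adjusted p = 0.00883) for the double mutant minus rbf120a, the latter lost without 1 array (adjusted p = 0.0561 without double mutant replicate 3). In the oxidative phosphorylation list 2 of 72 genes rose, UQCR-11 (0.78 ± 0.19) and ATPsynepsilonL (0.73 ± 0.18), and both calls were lost without 8 arrays (adjusted p = 0.16 without rbf120a replicate 2 and adjusted p = 0.196 without rbf120a replicate 1). The share called was 2.78%, below the 3.51% of all genes. The median was -0.01, against 0.20 in wtsX1Lats, where 7 of the genes rose.

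**Figure D2:**
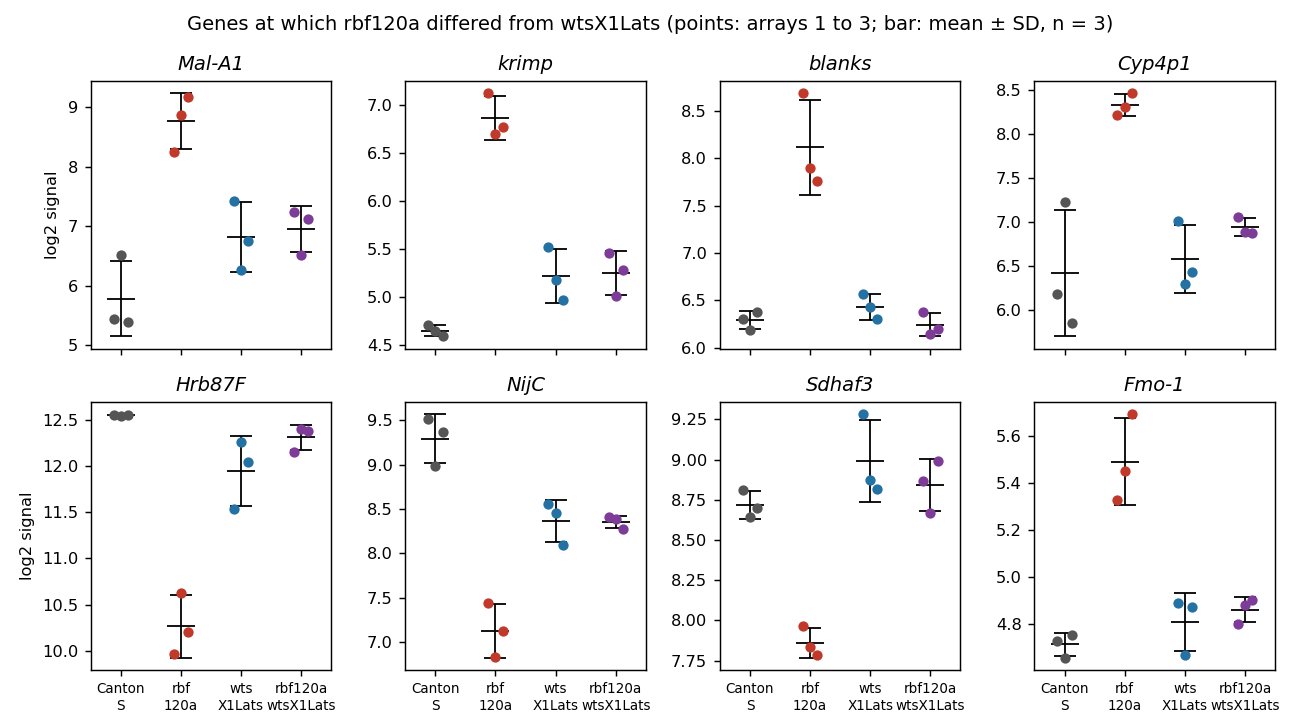
Log2 signal of 8 genes in each of the 12 arrays by genotype, with group means and SDs as bars (n = 3). Mal-A1, krimp, blanks, Cyp4p1 and Fmo-1 were higher and Hrb87F, NijC and Sdhaf3 lower in rbf120a than in any other group, and the double mutant lay away from rbf120a in each panel.

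Some genes of blood cells and of the matrix they lay down fell. Hml, or hemolectin (CG7002, arm 3L), a clotting protein of plasmatocytes, was at 9.34, 10.02 and 9.02 in the Canton S arrays and at 7.30, 7.49 and 7.46 in the rbf120a arrays, a change of -2.04 ± 0.24 (SE; adjusted p = 0.000557). The phagocytic receptor gene eater was at 8.56, 8.98 and 8.13 in the Canton S arrays and at 6.44, 6.18 and 6.17 in the rbf120a arrays, a change of -2.29 ± 0.30 (SE; adjusted p = 0.00104). Both were as low in the other mutants, with Hml at -2.0 in the double mutant and -2.05 in wtsX1Lats and eater at -2.33 in the double mutant and -2.64 in wtsX1Lats. Of the 32 blood cell markers 9 fell and 1 rose in rbf120a, 31.2% called against 3.51% of all genes. Called or not, 22 had changes below 0 and 10 above. Glt, described with the matrix below, is among the 9 and counts in both lists. List medians were -0.27 in rbf120a, -0.42 in the double mutant and -0.41 in wtsX1Lats. In bulk discs, fewer blood cells and less of these RNAs in each cell cannot be told apart.

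The fall did not extend over the whole list. NimB4 and NimB1, proteins of the Nimrod family, fell, at -1.92 ± 0.28 and -0.85 ± 0.13 (SE), and the scavenger receptor gene Sr-CI fell by 1.91, a call lost without 1 array (adjusted p = 0.0525 without rbf120a replicate 1). The GATA factor srp and the prophenoloxidase PPO1 of crystal cells fell, at -2.01 ± 0.42 and -2.02 ± 0.40 (SE), calls lost without 5 and 4 arrays (adjusted p = 0.0954 without Canton S replicate 1 for srp, adjusted p = 0.0866 without Canton S replicate 1 for PPO1). Other defining genes did not pass the test. NimC1 was at 5.86, 5.87 and 5.87 in the Canton S arrays and at 5.86, 6.07 and 6.33 in the rbf120a arrays, Pxn at 8.95, 8.91 and 9.20 in the Canton S arrays and at 8.85, 8.53 and 8.59 in the rbf120a arrays and crq at 8.92, 9.74 and 8.87 in the Canton S arrays and at 8.97, 8.55 and 9.07 in the rbf120a arrays. In Canton S, NimC1 lay near the array medians of 5.76 to 5.86, so its signal may be background and may not show a fall. The log2 summed level of the list was 13.32 to 13.44 in the rbf120a arrays and 13.57 to 14.24 in Canton S.

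In the basement membrane and matrix list 4 of 24 genes fell and 0 rose, 16.7% called against 3.51% of all genes. Glt, or glutactin (CG9280, arm 2L), a basement membrane glycoprotein, was at 10.32, 10.27 and 10.16 in the Canton S arrays and at 7.36, 7.66 and 7.22 in the rbf120a arrays, a change of -2.84 ± 0.15 (SE; adjusted p = 7.3e-07). fat-spondin (CG6953, arm 2R), a secreted protein of the spondin family, was at 9.05, 8.94 and 8.80 in the Canton S arrays and at 6.11, 6.00 and 5.91 in the rbf120a arrays, a change of -2.92 ± 0.34 (SE; adjusted p = 0.000552). SPARC and the collagen IV subunit vkg fell, at -0.70 ± 0.13 and -0.71 ± 0.17 (SE), calls lost without 2 and 8 arrays (adjusted p = 0.0553 without rbf120a replicate 2 for SPARC, adjusted p = 0.139 without rbf120a replicate 3 for vkg). The laminin subunits LanA and LanB1 were at 0.04 ± 0.17 and -0.08 ± 0.14 (SE), and perlecan, trol, at 0.01 ± 0.30. The list medians were -0.08 in rbf120a, -0.46 in the double mutant and -0.40 in wtsX1Lats, and rbf120a minus wtsX1Lats had a list median of 0.05 with 0 of 24 called.

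Among adhesion genes the integrin subunit scb, alphaPS3, was at 9.26, 8.85 and 9.17 in the Canton S arrays and at 10.62, 10.56 and 10.19 in the rbf120a arrays, a change of 1.36 ± 0.18 (SE; adjusted p = 0.00132), and was 1.46 in the double mutant and 1.11 in wtsX1Lats. Cad86C fell by 0.91, with adjusted p = 0.0499, was lost without 10 arrays (adjusted p = 0.174 without rbf120a replicate 3) and had 3 other probe sets, at -0.05, -0.10 and 0.09. The other 48 of 50 septate junction, adhesion and polarity genes did not pass the test. NijC (CG14394, arm 3R), an adhesion protein of the ninjurin family, was at 9.52, 8.98 and 9.37 in the Canton S arrays and at 7.43, 6.83 and 7.13 in the rbf120a arrays, a change of -2.16 ± 0.19 (SE; adjusted p = 5.81e-05). It lay between in the other mutants (-0.93 in the double mutant and -0.93 in wtsX1Lats), and rbf120a was lower than wtsX1Lats (-1.24 ± 0.19 (SE; adjusted p = 0.0114)). The double mutant minus rbf120a was 1.23 ± 0.19 (SE; adjusted p = 0.01). Both direct calls were lost without 2 arrays (adjusted p = 0.0556 without rbf120a replicate 3 and adjusted p = 0.0549 without double mutant replicate 1).

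The actin regulators dia, a formin, and Arpc1, a subunit of the Arp2/3 complex, rose by 1.42 ± 0.25 (SE; adjusted p = 0.00893) and 1.42 ± 0.14 (SE; adjusted p = 0.000176). Arpc1 was at 9.96, 9.91 and 10.07 in the Canton S arrays and at 11.48, 11.38 and 11.36 in the rbf120a arrays, with the groups well apart. Arpc1 was 1.49 in the double mutant (adjusted p = 0.000101) and 1.59 in wtsX1Lats (adjusted p = 6.29e-05), and dia was 1.23 in the double mutant (adjusted p = 0.015) and 1.23 in wtsX1Lats (adjusted p = 0.0155).

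**Figure D3:**
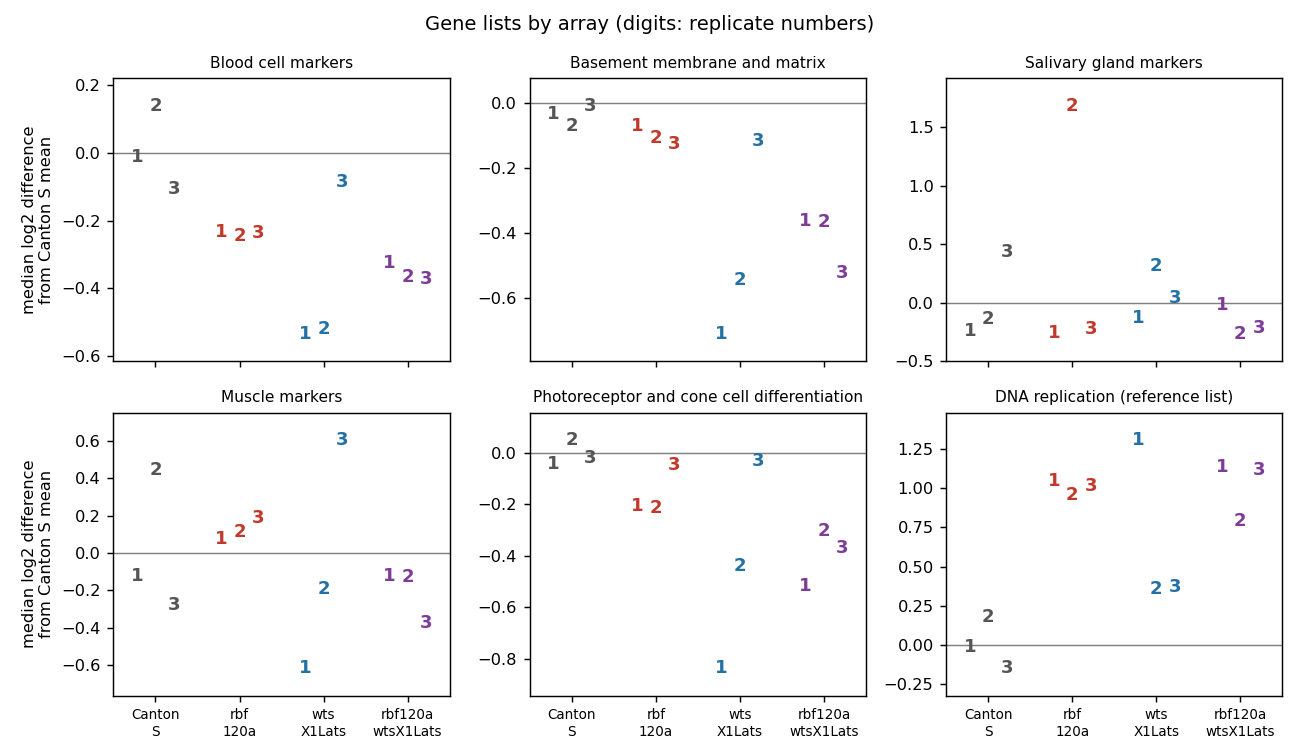
Median log2 difference from the Canton S mean over the genes of 6 lists, by array, with replicate numbers as symbols. Blood cell genes lay at -0.24 in all 3 rbf120a arrays and DNA replication genes at 0.95 to 1.05, while salivary gland genes set rbf120a replicate 2 apart and replication, photoreceptor and muscle genes set the wtsX1Lats arrays apart from each other.

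Stress, immune and cuticle lists held few calls. The BAG family co-chaperone gene stv, starvin (CG32130, arm 3L), was at 9.68, 10.15 and 9.57 in the Canton S arrays and at 7.49, 7.31 and 7.70 in the rbf120a arrays, a change of -2.30 ± 0.22 (SE; adjusted p = 0.000118), and was -2.50 in the double mutant and -2.47 in wtsX1Lats. It was the 1 call among 22 heat shock genes, whose median was 0.04. None of 36 antimicrobial peptide and humoral immunity genes passed the test, and the 2 with the smallest p, GNBP3 and Mtk, were at -0.26 ± 0.09 and 0.30 ± 0.12 (SE). Among 34 serpins and clip proteases Spn42De rose by 1.38 ± 0.21 (SE; adjusted p = 0.00307) and Spn47C fell by 2.78, a call lost without 5 arrays (adjusted p = 0.119 without rbf120a replicate 1). The lectin gene lectin-24Db fell by 1.69, also lost without 5 arrays (adjusted p = 0.0661 without Canton S replicate 1).

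Of 125 cuticle and chitin genes 3 rose and 4 fell, 5.6% called against 3.51% of all genes, around a median of -0.01. Cpr47Eb (CG13224, arm 2R) was at 12.67, 12.89 and 11.38 in the Canton S arrays and at 9.31, 9.52 and 10.03 in the rbf120a arrays, a change of -2.69 ± 0.32 (SE; adjusted p = 0.000686) with -3.09 in the double mutant and -2.98 in wtsX1Lats. Cpr78E and Lcp65Af fell, at -1.24 ± 0.18 and -1.74 ± 0.27 (SE), and Cpr65Ec rose by 1.40 ± 0.24 (SE). The rises of obst-B (0.81 ± 0.16) and Cpr65Av (0.82 ± 0.19) were lost without single arrays (adjusted p = 0.0784 without rbf120a replicate 3 for obst-B, adjusted p = 0.119 without rbf120a replicate 1 for Cpr65Av). reb, rebuff, which acts in chitin deposition, rose by 1.45 ± 0.18 (SE; adjusted p = 0.000865), and yellow-f, an enzyme of melanin synthesis, fell by 1.78 (adjusted p = 0.000698).

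Lists of eye differentiation and of signalling held almost no call in rbf120a. Among 38 genes of photoreceptor and cone cell differentiation 1 rose, wrapper (0.47 ± 0.11 (SE; adjusted p = 0.0435)), which was lost without 8 arrays (adjusted p = 0.173 without rbf120a replicate 1), and 0 fell. The list median was -0.16, while it was -0.40 in wtsX1Lats, where 7 genes fell, and -0.39 in the double mutant, where 5 fell and 1 rose. By array it was -0.21, -0.21 and -0.05 in rbf120a, but -0.84, -0.44 and -0.03 in wtsX1Lats, where replicate 1 was lowest. sevenless, sev, the receptor of the R7 photoreceptor, was at 9.18, 8.61 and 9.22 in the Canton S arrays and at 8.28, 8.40 and 8.39 in the rbf120a arrays, with -0.65 ± 0.19 (SE; adjusted p = 0.113). Its rbf120a arrays were all below Canton S without passing the test.

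None of 16 Notch targets passed the test in rbf120a, and their median was -0.19, against -0.37 in wtsX1Lats and -0.53 in the double mutant. None of 28 Hedgehog, Dpp, Wg and Egfr genes (median -0.03), 22 JNK and stress kinase genes (median -0.01), 16 apoptosis genes (median 0.08) or 23 ecdysone response genes (median -0.04) passed it. The members with the smallest p were edl at -0.27 ± 0.10, Pvf2 at 0.94 ± 0.26, Dredd at -0.56 ± 0.16 and E23 at -0.51 ± 0.23 (SE) in these lists. At an unadjusted p under 0.05, 1500 of all genes (12.5%) would have been counted.

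Of the 11 Hippo target genes 2 passed the test in the double mutant and 0 in either single mutant, with medians of 0.03 in rbf120a, 0.35 in the double mutant and 0.17 in wtsX1Lats. CycE, the cyclin that starts S phase and a target of both pathways, was at 9.46, 10.36 and 9.35 in the Canton S arrays and at 10.29, 10.44 and 10.66 in the rbf120a arrays. The groups overlapped, and the change of 0.74 ± 0.24 (SE; adjusted p = 0.151) did not pass.

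Growth and housekeeping lists centred on 0. None of 34 ribosome biogenesis genes, 69 mitochondrial ribosomal protein genes and 36 proteasome genes passed the test, with medians of 0.03, -0.01 and 0.02. Of 34 cytosolic ribosomal protein genes RpL27 rose by 0.33 ± 0.06 (SE; adjusted p = 0.00651), and the list median was 0.00. In wtsX1Lats the mitochondrial ribosomal protein genes had a median of 0.28 with 3 higher, and rbf120a minus wtsX1Lats had a list median of -0.29 with 0 of 69 called.

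**Figure D4:**
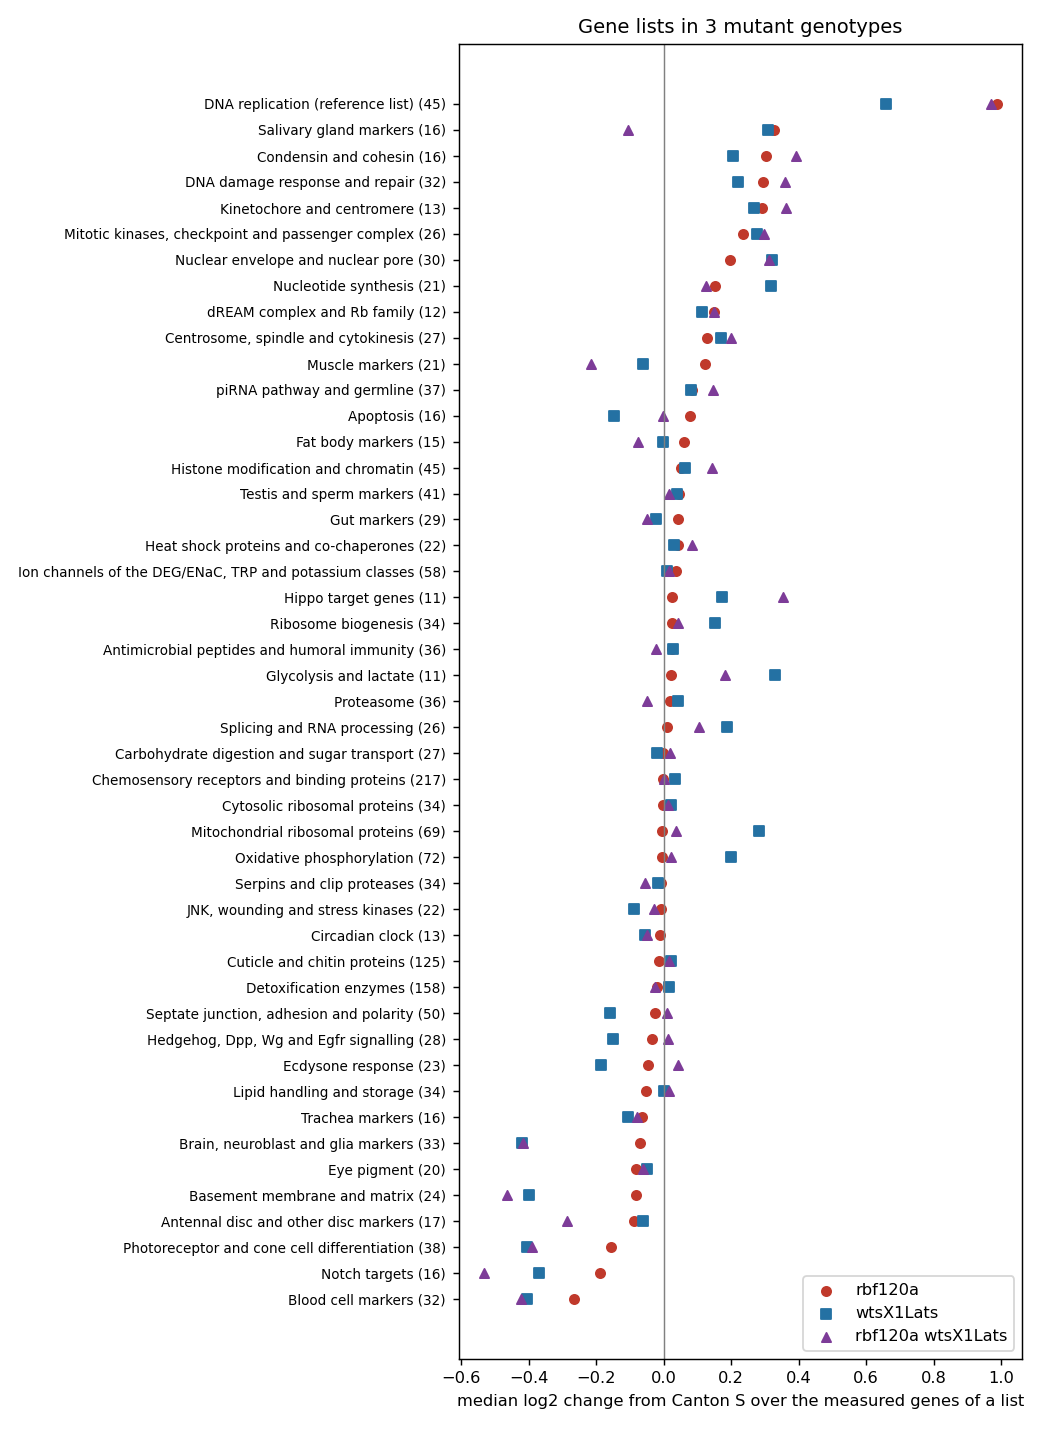
Median log2 change from Canton S over the measured genes of each of 47 lists (number of genes in brackets), for rbf120a (circles), wtsX1Lats (squares) and the double mutant (triangles). DNA replication stood at 0.99 in rbf120a, the repair and cell division lists between 0.13 and 0.30, and blood cell genes lowest at -0.27.

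Markers of other tissues that a dissected disc could carry were set out for the whole lists. Among 15 fat body markers apolpp and Cyp4p1 rose and 0 fell (median 0.06), and the log2 summed level was 12.04 to 12.53 in Canton S and 12.10 to 12.64 in rbf120a. The 21 muscle, 16 tracheal, 17 antennal and other disc, and 16 salivary gland markers held 0 calls in rbf120a, with medians of 0.12, -0.06, -0.09 and 0.33. The salivary gland genes Sgs4 and Muc68Ca were at 10.39 and 10.42 in rbf120a replicate 2, but at 5.06 and 4.93 in replicate 1 and 5.09 and 4.75 in replicate 3. Of 29 gut markers Mal-A1 rose, LManI fell, and Peritrophin-A fell by 0.69, a call lost without 7 arrays (adjusted p = 0.124 without rbf120a replicate 1). In the brain, neuroblast and glia list wrapper alone was called in rbf120a (median -0.07), while 8 genes fell in wtsX1Lats and 9 in the double mutant.

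A direct comparison of rbf120a with wtsX1Lats shows where the single mutants part. It called 120 genes (1.0%), 72 (0.601%) higher and 48 (0.401%) lower in rbf120a, and the double mutant against rbf120a called 81 (0.676%). Both comparisons use the rbf120a arrays. Same-numbered arrays of rbf120a and wtsX1Lats deviated together, and with the replicate number as a block 77 genes (0.643%) passed in the first comparison, 73 of them among the 120. A paired fit of those 6 arrays alone, added after the data were seen, called 24. Leaving out 1 array moved the first count between 30 without rbf120a replicate 3 and 772 without wtsX1Lats replicate 3. It moved the second between 29, without rbf120a replicate 1 or double mutant replicate 3, and 159 without wtsX1Lats replicate 3. Besides krimp, blanks, Mal-A1, Cyp4p1, Claspin, Fmo-1 and apolpp, the genes higher in rbf120a than in both Canton S and wtsX1Lats included santa-maria, a scavenger receptor of the CD36 family, at 1.25 ± 0.17 (SE; adjusted p = 0.00143) and 0.82 ± 0.17 (SE; adjusted p = 0.0444). PolA1, the catalytic subunit of the polymerase that starts DNA synthesis, was at 0.65 ± 0.13 (SE; adjusted p = 0.0436) against wtsX1Lats. Against wtsX1Lats both calls were lost without 9 arrays (adjusted p = 0.163 without rbf120a replicate 1 for santa-maria, adjusted p = 0.166 without rbf120a replicate 1 for PolA1) and with the block (adjusted p = 0.0795 and adjusted p = 0.0787).

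Lower in rbf120a than in both were, besides Hrb87F, NijC, whd and Sdhaf3, the genes aru, esn, Reg-2, SelG and Bap60. aru, arouser, was at 10.57, 10.61 and 10.51 in the Canton S arrays and at 9.88, 9.80 and 9.89 in the rbf120a arrays, a change of -0.71 ± 0.10 (SE; adjusted p = 0.00144), and was -0.08 in the double mutant and 0.07 in wtsX1Lats. esn, espinas, a LIM domain relative of prickle, was at 9.47, 9.75 and 9.54 in the Canton S arrays and at 8.78, 8.81 and 8.71 in the rbf120a arrays, a change of -0.82 ± 0.11 (SE; adjusted p = 0.00122), but its other probe set was at -0.02. The calls against Canton S for Reg-2 (-1.12 ± 0.22) and SelG (-0.83 ± 0.15) were lost without 4 arrays and 1 array (adjusted p = 0.0739 without Canton S replicate 1 and adjusted p = 0.0523 without rbf120a replicate 1). Against wtsX1Lats the calls for aru and esn held without any 1 array, at -0.78 ± 0.10 and -1.09 ± 0.11 (SE), while those for Reg-2, SelG and Bap60 did not (adjusted p = 0.0729 without rbf120a replicate 3, adjusted p = 0.153 without rbf120a replicate 1 and adjusted p = 0.082 without rbf120a replicate 2).

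Some of the largest changes fell in genes of other kinds. jim, a zinc finger gene, rose by 2.32 ± 0.07 (SE; adjusted p = 1.3e-09) on 1 probe set, while its other 2 were at 0.13 and 0.09. msl-3, a subunit of the dosage compensation complex, rose by 1.91 ± 0.25 (SE; adjusted p = 0.00103), with its other probe set at 1.51, and was 1.48 in the double mutant and 1.39 in wtsX1Lats. l(3)87Df rose by 1.71 ± 0.15 (SE; adjusted p = 6.71e-05) and was 1.68 in the double mutant and 1.83 in wtsX1Lats. UK114 and pastrel, pst, rose by 1.64 ± 0.31 and 1.54 ± 0.32 (SE), calls lost without 2 and 4 arrays (adjusted p = 0.067 without rbf120a replicate 1 for UK114, adjusted p = 0.0784 without rbf120a replicate 3 for pst).

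Among the falls, veil, a 5'-nucleotidase, was at -2.10 ± 0.26 (SE; adjusted p = 0.000698), Karl, a lipocalin, at -1.86 ± 0.23 (SE; adjusted p = 0.000698) and slif, an amino acid transporter known as slimfast, at -1.73 ± 0.28 (SE; adjusted p = 0.00441). The regucalcin gene was at -1.90 ± 0.33 (SE; adjusted p = 0.00725), with its other probe sets at -2.40 and -0.04. The falls of Had2 (-2.04 ± 0.38) and raskol (-1.99 ± 0.42) were lost without 1 and 5 arrays (adjusted p = 0.0572 without Canton S replicate 1 for Had2, adjusted p = 0.101 without Canton S replicate 1 for raskol), and the other raskol probe sets were at 0.32 and -0.23. In the other mutants veil was -1.51 in the double mutant and -1.28 in wtsX1Lats, and Karl was -1.42 in the double mutant and -1.63 in wtsX1Lats.

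The same allele was also labelled on the wtsX1Lats background. The double mutant against wtsX1Lats thus gives the change that goes with it on 6 arrays that rbf120a against Canton S does not use. The labels do not tell whether these 2 groups differ in anything else, so allele and line cannot be told apart here either. With limma 0 of 11982 genes passed there (0.0%), 1033 had an unadjusted p under 0.05 (8.62%), and the smallest adjusted p was 0.471. Without wtsX1Lats replicate 1, in which replication genes were high, 20 genes passed. Of these, 16 were called with the same sign in rbf120a against Canton S without that array, which is 80.0% of the 20 and 2.53% of the 632 called there. The shared rises were Mcm2, Mcm5, Mcm6, PolE1, Prim1, RnrL, Ts, dnk, dup, DNAlig1, Rif1, elg1 and timeout, of which 9 belong to the replication list, and the shared falls were SelG, Cpr51A and CG16704. The other calls were Zip102B on chromosome 4 (3.98), Def (-2.50), CG11370 (-1.84) and tko (-1.29). In rbf120a against Canton S without that array these were at 0.02, -0.49, -0.40 and -0.09. All 20 were selected by their calls after that array had been seen to stand apart.

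In numbers, the median of the 45 replication genes was 0.28 for the double mutant minus wtsX1Lats, with 41 above 0, and 0.59 without wtsX1Lats replicate 1, with 44 above 0. All genes had medians of -0.02 and -0.01 in those fits, with 44.2% and 48.1% above 0. The 193 genes called higher in rbf120a outside the replication list had a median of 0.85 against Canton S but 0.06 in the wtsX1Lats background, 61.7% of them above 0, and 0.11 without wtsX1Lats replicate 1. The 205 genes called lower had medians of -0.91 against Canton S and -0.02 in the wtsX1Lats background, where 46.3% were above 0. Among the genes chosen by the naming rule, the 4 values of largest size there were those of Spn47C (-1.29), del (0.87) and Claspin (0.71), all with the sign they had against Canton S, and srp (0.87), with the opposite sign. LBR was at 0.13, Gr61a at -0.10, Glt at 0.32, Hml at 0.05 and Hrb87F at 0.36.

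**Figure D5:**
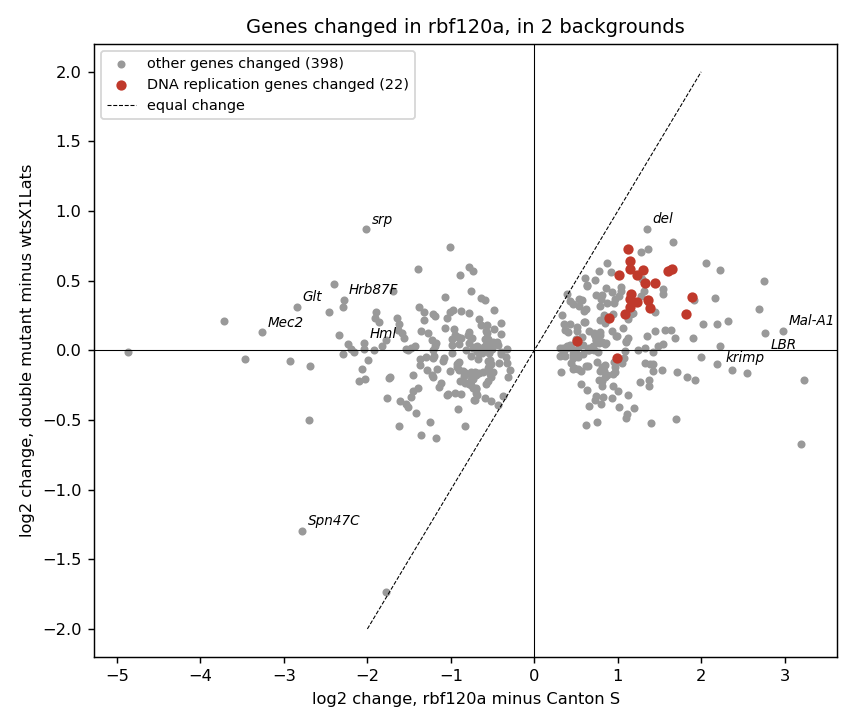
Log2 change of the 420 genes called in rbf120a against Canton S (horizontal axis) and their change in the double mutant against wtsX1Lats (vertical axis), with 22 DNA replication genes in red and the other 398 in grey. Replication genes lay above 0 on both axes with 1 exception, and the other genes spread around 0 on the vertical axis.

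Gene by gene, this difference is tested by the interaction, the double mutant minus wtsX1Lats after subtraction of rbf120a minus Canton S. It called 107 genes (0.893%), 59 (0.492%) above 0 and 48 (0.401%) below, and between 41 without Canton S replicate 1 and 121 without wtsX1Lats replicate 1. LBR had an interaction of -2.64 ± 0.20 (SE; adjusted p = 4.43e-05), Glt of 3.15 ± 0.22 (SE; adjusted p = 1.39e-05) and Mec2 of 3.39 ± 0.60 (SE; adjusted p = 0.0236), each close in size to its own change in rbf120a and opposite in sign. For Orc1 it was -1.50 ± 0.44 (SE; adjusted p = 0.218), for Msh6 -0.35 ± 0.27 (SE; adjusted p = 0.724) and for Rbf2 -0.47 ± 0.26 (SE; adjusted p = 0.61), none past the threshold. The interaction uses the Canton S and rbf120a arrays of the main comparison, so it repeats the values that chose these genes.

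The calls were spread over the chromosomes. Of the tested genes 3.1% were called on the X chromosome, which carries Rbf, 3.72% on 2L, 3.83% on 2R, 4.27% on 3L, 2.79% on 3R and 3.08% on chromosome 4.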

How the data were processed

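RNA of 12 eye disc samples was measured on Affymetrix arrays, from 6 ug of total RNA per the labels' protocols. The authors deposited 1 table of log2 values for 18952 probe sets. The scale was read from the values, 3.55 to 14.53, and the summary and normalization methods are not given in the sources used here. Without detection calls, which were not used here, a dim probe set cannot be told from background, and precision is limited by the number of arrays.

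The annotation gave 1 gene for 13647 probe sets, several for 402 and none for 4720, and 183 were controls. Names came from the platform annotation and were updated where they matched a current gene table (13544 probe sets; Release 6 plus ISO1 MT), used for names and chromosomes alone. The probe set with the highest mean over 12 arrays stood for each of 11982 genes, of which 1094 had several. limma 3.58.1 in R 4.3.3 (lmFit, eBayes with a variance trend) fitted 4 group means over the 12 arrays, with Benjamini-Hochberg adjustment over all genes and a threshold of 0.05. Every adjusted p is from limma, each ± of a change is a standard error, and changes are log2 differences in the order named. The labels number replicates alike in all groups. Between rbf120a and wtsX1Lats the 3 same-numbered pairs of arrays had correlations of their deviations from the group means of 0.22 to 0.30, and the 6 other pairs -0.26 to -0.05. For that reason the numbers were taken to pair these samples, from the data and not from the labels. Deviations cancel within a group, so these ranges are not independent. Elsewhere a pair with different numbers reached 0.46 (rbf120a replicate 2 and double mutant replicate 1), so values of this size do not establish pairing. In the other pairs of groups at least 1 same-numbered pair was below 0.1. P-values measure the spread between the labelled replicates. The fit was tested on simulated data.

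The comparison, the 47 gene lists and the rule for named genes were chosen with earlier results of these data known. The rule took the 25 largest named rises and 25 largest named falls with non-overlapping arrays, up to 6 called members per list (the 2 with the smallest p where none was called), genes called alike against wtsX1Lats, and 6 interaction genes each way. eya, gl, sev, NimC1, Pxn, crq, piwi, vas, rhi, LanA, LanB1 and trol were added as defining members, RecQ4 and Orc1 stood among the largest rises, and the salivary gland genes and those shared between backgrounds were chosen after their values were seen. Alternatives were the replicate number as a block, the 6 arrays of a contrast alone, that block on the 6 arrays of rbf120a and wtsX1Lats, leaving out each array, quantile normalization, median centring, the brighter genes alone, the mean of probe sets, no trend, robust fitting, array weights and a minimum change of 0.5. No sequences were used here.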

Additional observations from a re-analysis of the deposited data

Results flagged for a closer look

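For 41 genes named above, the change that goes with rbf120a differed between the wtsX1Lats and the Canton S background. The test was the interaction of limma with adjusted p under 0.05, which made 107 calls (0.893%) over all genes. These genes were named for their changes in rbf120a or for the interaction itself, so their number cannot be read against that share. Where all mutants lay together away from Canton S, as for LBR, Glt and Hml, the value repeats the difference from Canton S. The values below are log2 changes in the wtsX1Lats background minus those in the Canton S background, so a gene that rose in rbf120a and not between wtsX1Lats and the double mutant has a value below 0. Groups of 3 arrays were not searched for single outlying arrays.

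Among genes of receptors, channels, RNA and the nucleus, the values were LBR (-2.64), Gr61a (-2.29), Gr64a (-1.83), rpk (-1.78), krimp (-2.19), blanks (-2.01), Rbm13 (-2.0), jim (-2.11), msl-3 (-1.82), l(3)87Df (-1.86), Grip91 (-1.02) and Obp19d (-1.49) below 0, and Mec2 (3.39), Hrb87F (2.65) and Obp99c (1.04) above 0.

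Genes of blood cells, matrix, adhesion and cuticle gave Glt (3.15), fat-spondin (2.85), eater (2.60), Hml (2.09), NimB4 (1.92), srp (2.88), NijC (2.15), Cpr47Eb (2.58) and yellow-f (1.86) above 0, and Cpr65Ec (-1.93), Spn42De (-1.63), reb (-1.31) and Arpc1 (-1.52) below 0. Enzymes, carriers and chaperones gave Mal-A1 (-2.84), ry (-1.67), Ugt301D1 (-1.09), GstT1 (-0.93), santa-maria (-1.24) and Fmo-1 (-0.73) below 0, and Gal (2.45), stv (2.27), whd (1.85), veil (1.88), Karl (2.06), Cyp6a13 (1.49) and esn (0.83) above 0.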

How the results depend on the processing

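No alternative turned the direction of a named gene in rbf120a against Canton S, but many could not have done so. No trend, robust fitting, the block, the contrast's own arrays and leaving out arrays of other groups keep the difference of group means. The arrays of rbf120a and Canton S did not overlap in any of the 420 genes, so leaving out 1 of them cannot turn these either. Of the 420 genes, 165 kept their call without any 1 array. Leaving out 1 array gave 197 to 632 genes for rbf120a against Canton S, 0 to 20 for the double mutant against wtsX1Lats, 0 to 16 changed the same way in both backgrounds, 30 to 772 for rbf120a against wtsX1Lats, 41 to 121 for the interaction, 29 to 159 for the double mutant against rbf120a, 297 to 1596 in wtsX1Lats and 297 to 1080 in the double mutant when each was set against Canton S. Testing only the brighter genes, which leaves fewer genes, gave 235, 67, 55, 42 and 425 genes for rbf120a against Canton S, rbf120a against wtsX1Lats, the interaction, the double mutant against rbf120a and the double mutant against Canton S. A minimum change of 0.5 gave 70, 8, 24, 9 and 91 in the same order, and 70 for wtsX1Lats against Canton S. Array weights, whose estimation did not converge, gave 3213, 61, 253, 589 and 4463 in that order. Fits on only the arrays of a contrast gave 524 for rbf120a against Canton S, 23 for rbf120a against wtsX1Lats and 412 for the double mutant against rbf120a. Against Canton S they gave 181 in wtsX1Lats and 1076 in the double mutant. The cause was not tested. Quantile normalization (421), median centring (373), the mean of probe sets (427), no trend (420) and robust fitting (414) stayed within 1.5 times the 420.

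With the replicate number as a block, 388 genes passed for rbf120a against Canton S, 77 for rbf120a against wtsX1Lats (24 in a block fit of its 6 arrays alone, added after the data were seen), 87 for the interaction, 0 for the double mutant against wtsX1Lats, 61 for it against rbf120a and, against Canton S, 674 in wtsX1Lats and 620 in the double mutant. Only between rbf120a and wtsX1Lats were the numbers taken to pair samples. There the block over the 12 arrays ended the calls of Mal-A1, Claspin, apolpp, santa-maria and PolA1. It kept those of the other 13 genes named as called in that comparison. In the block fit of the 6 arrays alone, only krimp, blanks, Cyp4p1 and Hrb87F among all these genes kept their calls. In that limma fit Fmo-1, NijC, Sdhaf3 and esn had adjusted p = 0.0674, whd adjusted p = 0.0642 and aru adjusted p = 0.139.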

Other observations

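Chromosome 4, of which 65 genes were tested, stood out in comparisons with wtsX1Lats. There 7 genes (10.8%) were higher in rbf120a than in wtsX1Lats and 0 lower, against 1.0% called over all genes (4 higher with the replicate number as a block, against 0.643%), and 9 (13.8%) were lower in wtsX1Lats than in Canton S and 0 higher, against 5.61%. In rbf120a against Canton S 2 genes of that chromosome were called, both higher. Of the 420 genes called in rbf120a, 164 have only a CG or CR number, and 192 had a mean below 7.44, the median over all genes.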
